A study of Mus musculus with 15 samples.

Results

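The inhibitors of DNA binding, or Id genes, are a family of 4 in the mouse, *Id1*, *Id2*, *Id3* and *Id4*. They were taken by symbol from a table of 16729 genes measured in 15 samples of mouse endometrial epithelial organoids, and each of the 4 was matched to 1 identifier and passed the filter on low values (a mean of at least 10) in all comparisons. Organoids are cultures of uterine epithelial cells embedded in Matrigel. The study asked what follows when signaling through SMAD2 and SMAD3, the transcription factors that TGFβ and activin receptors switch on, is removed by gene deletion or by a drug. RNA was sequenced from 3 samples of control + vehicle and from 4 samples of each other group, named control + A83-01, *Smad2/3* cKO and *Smad2/3* cKO + A83-01. The labels speak of 4 mice per genotype, but the *Smad2/3* cKO samples carry 7 different label numbers, of which only 1 stands on a sample without and a sample with the drug. The control samples carry 4, of which 3 stand on both.

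All mice were homozygous for floxed *Smad2* and floxed *Smad3*. Control organoids carried these alleles alone, and *Smad2/3* cKO organoids carried them with 1 copy of *Ltf*-cre, in which the lactoferrin promoter drives Cre recombinase in the uterine epithelium. A83-01 inhibits the kinases ALK4, ALK5 and ALK7, the type 1 receptors that phosphorylate SMAD2 and SMAD3, and the other groups received the solvent DMSO. The medium of every group held EGF, FGF10, HGF and media conditioned with WNT3a, R-spondin and Noggin, a secreted antagonist of BMP ligands, so all Id levels were measured with a BMP antagonist present. The mice were adults, and estradiol was given around weaning to switch on the Cre transgene.

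ID proteins have the helix-loop-helix region through which transcription factors of the bHLH class pair, but lack the basic region that touches DNA. They pair above all with the E proteins (TCF3, TCF4 and TCF12) and keep these from binding E-boxes together with tissue bHLH factors, which is known to hold back differentiation and to favor proliferation in many cell types. Their genes are textbook targets of BMP ligands, whose receptors phosphorylate SMAD1 and SMAD5, and in several cell types *Id* genes are also known to be held down by TGFβ.

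Sample totals ran from 20241771 to 24423127 normalized counts, and an estimated 18.6 to 43.4 M reads lay behind each, the deepest being *Smad2/3* cKO + A83-01 replicate 3. The log2 values of replicates correlated at 0.914 to 0.97. *Smad2* and *Smad3* transcripts were counted over the whole gene, reads outside the deleted exons included: *Smad2* stood at 1045 to 1335 in control + vehicle and 821 to 924 in *Smad2/3* cKO, and *Smad3* at 1532 to 1741 and 1170 to 1977, which does not check the deletion. The epithelial markers were strong in all samples (*Epcam* means of 23268 to 25458 over the groups), while the means of *Krt8*, *Krt19* and *Cldn4* were lower in both *Smad2/3* cKO groups. Of the stromal markers none had a group mean above 41.4, and of the 3 endothelial markers in the table *Pecam1* and *Cdh5* had means of at most 1.89 and 8.61. The third, *Sox17*, which uterine epithelium also expresses, had means of 3229, 1978, 1301 and 1299.9 in the order of the groups above, and fell with deletion and A83-01 together (log2 difference −1.39, adjusted p = 0.00675, limma). That *Sox17* call was kept in 2 of 7 fits that left out 1 sample (adjusted p 0.0042 to 0.0329) and in 7 of 12 alternative settings. The mesothelial marker *Msln* had means of 20588, 12997, 5840.3 and 4880.4 and passed in no comparison. *Smad2/3* cKO replicate 2 stood apart by its macrophage genes, with *Lyz2* at 3372, *Adgre1* at 351 and *Tyrobp* at 128, against at most 86.9, 9.01 and 0 in the other 14 samples. The Id results with *Smad2/3* cKO samples are given with and without it.

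*Id4*, the member least expressed in control + vehicle, differed most. It was measured at 12.7, 18.2 and 4.55 normalized counts in the 3 control + vehicle samples, at 258, 239, 134 and 128 in control + A83-01, at 858, 618, 395.6 and 305 in *Smad2/3* cKO, and at 660, 662, 334 and 416 in *Smad2/3* cKO + A83-01. Every treated or deleted sample lay above every control + vehicle sample, and both *Smad2/3* cKO groups also lay wholly above control + A83-01. With A83-01 in control organoids *Id4* rose by 4.00 on the log2 scale (SE 0.519, 95% interval 2.83 to 5.18, 16.02-fold, adjusted p = 0.00327, limma over 13009 genes), the 63rd largest rise among the genes tested. With *Smad2/3* deletion it rose by 5.475 (SE 0.506, 44.5-fold, adjusted p = 0.000363 over 13149 genes), the 48th largest rise. All fold changes and log2 differences are on the scale of the normalized count plus 1, which understates the change of genes as low as *Id4* in control + vehicle.

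**Figure D1:**
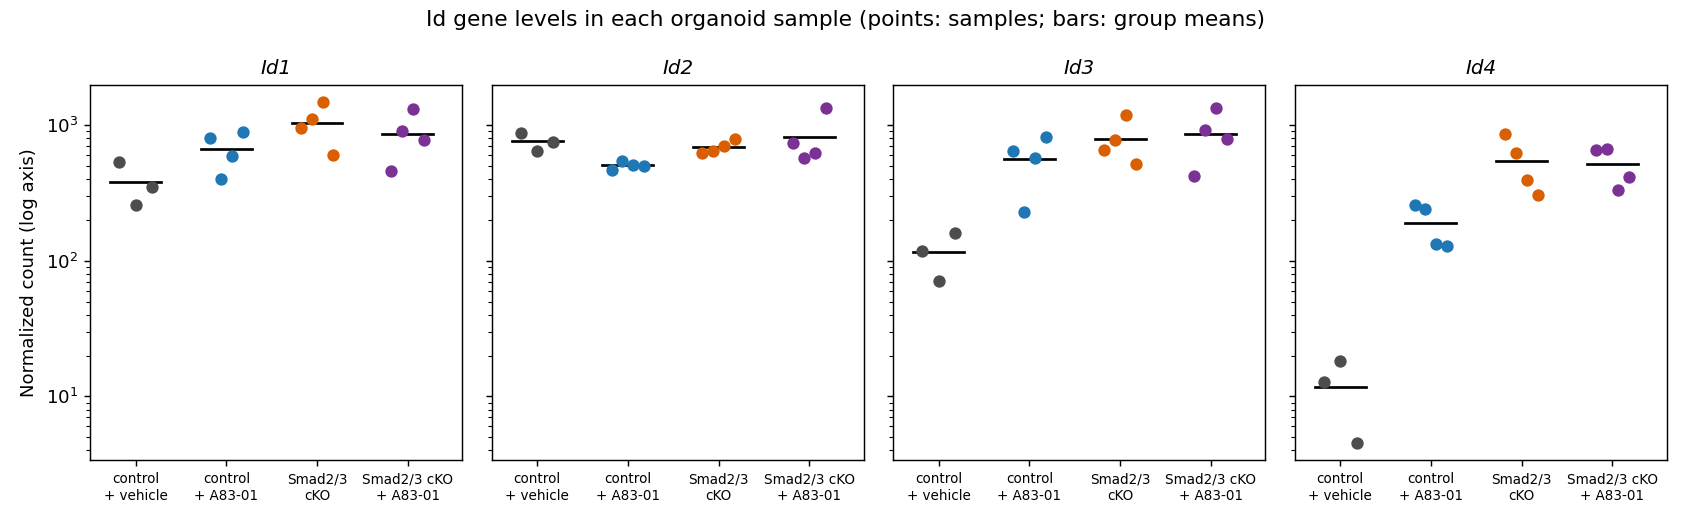
Normalized counts (log axis) of *Id1*, *Id2*, *Id3* and *Id4* in the 15 samples, by group (x axis), with 1 point per sample and a bar at the group mean. The *Id4* points of control + vehicle (4.55 to 18.2) and the *Id3* points (71.5 to 161) lie below all points of the other groups, while the 4 groups of *Id2* lie close together.

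*Id3*, a member known as an immediate BMP target in many cell types, stood at 118, 71.5 and 161 in control + vehicle. It was measured at 650, 229, 570 and 817 in control + A83-01, at 660, 775, 1187 and 521 in *Smad2/3* cKO, and at 423, 920, 1328 and 784 in *Smad2/3* cKO + A83-01. The control + vehicle samples were again the 3 lowest of the 15, and the other 3 groups overlapped. *Id3* rose with deletion by 2.75 (SE 0.343, 6.725-fold, adjusted p = 0.00137, limma). With A83-01 in control organoids its log2 difference was 2.20 (SE 0.456, 4.603-fold) at an adjusted p of 0.0233, which missed the threshold of 0.01. With the replicate number as a block, which pairs the control samples, the difference was 1.98 and passed (adjusted p = 0.00578), with the unpaired control + A83-01 replicate 4 carrying no weight in that fit.

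*Id1*, which is closely related to *Id3* and often induced with it, stood at 534, 258 and 347 in control + vehicle. It was measured at 809, 398, 591 and 883 in control + A83-01, at 952, 1114, 1482 and 603 in *Smad2/3* cKO, and at 462, 913, 1307 and 773 in *Smad2/3* cKO + A83-01. *Smad2/3* cKO samples all lay above the control + vehicle samples, whereas both groups grown with A83-01 overlapped them. The log2 difference with deletion was 1.44 (SE 0.330, 2.71-fold, adjusted p = 0.0169, limma), and with A83-01 in control organoids it was 0.82 (SE 0.339, 1.76-fold, adjusted p = 0.198). Neither passed the threshold, and the first would at an adjusted p below 0.05.

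*Id2*, a member known for its need in the mammary epithelium, stood at 881, 650 and 753 in control + vehicle. It was measured at 466, 544, 508 and 501 in control + A83-01, at 628, 642, 699 and 796 in *Smad2/3* cKO, and at 735, 574, 619 and 1341 in *Smad2/3* cKO + A83-01. The control + A83-01 samples were the 4 lowest of the 15, and the value of 1341 in replicate 4 stood above the rest of its group. The log2 difference with A83-01 in control organoids was −0.58 (SE 0.179, adjusted p = 0.0884, limma) and with deletion −0.13 (SE 0.164, 95% interval −0.50 to 0.23, adjusted p = 0.601). *Id2* thus passed in neither comparison.

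Over these 2 comparisons, which share the control + vehicle samples, the counts were as follows. With A83-01 in control organoids 1 of the 4 Id genes passed the thresholds (an adjusted p below 0.01 and a change of more than 1.4-fold either way), beside 2.27% of all genes tested. With deletion 2 of 4 passed, beside 7.38% of all genes. The median log2 difference over the 4 members was 1.51 with A83-01 and 2.10 with deletion, against −0.02 and 0.00 over all genes tested. In bulk RNA, a change in the number of cells of a type and a change in RNA per cell cannot be told apart. The share of all genes whose groups did not overlap was not counted. Wherever groups are said to lie apart, here and below, it is a description only.

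The gene bodies lie on 4 chromosomes of GRCm38, in GENCODE's annotation: *Id1* at chr2:152736251-152737410 (plus strand), *Id2* at chr12:25093799-25097140 (minus), *Id3* at chr4:136143497-136145755 (plus) and *Id4* at chr13:48261228-48266026 (plus). *Id4* shares 82 exonic bases with the antisense gene A330033J07Rik and 171 with the lincRNA gene Gm49291. The library kit does not mark strand, so reads in those bases cannot be told apart from *Id4* reads. *Id4* has 3849 exonic bases in all, and neither overlapping gene is in the table, so their levels are not known. RefSeq promoter sequence (GRCm38.p6, from 250 bases before to 50 after the start) was matched for 3 of the 4 members, *Id2*, *Id3* and *Id4*, with RefSeq starts that differ from the ends of the GENCODE gene bodies above. Since *Id3* and *Id4* rose together with deletion and *Id2* did not pass, their promoters were searched on both strands for GGCGCC, the GC-rich element known for SMAD1 and SMAD5, for GTCTG, the short SMAD3 and SMAD4 element, and for the E-box CANNTG, the site ID proteins keep E proteins from.

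The element GGCGCC was found once before *Id2* and once before *Id4* and not before *Id3*, and 11.9% of the 32851 mouse promoters held it. GTCTG was found in 2 places before *Id3* and in neither of the others, against 49.6% of all promoters. An E-box was found once before *Id2* alone, against 72.3%. No match overlapped another. Each match is given with the motif in capitals, in windows of 30 bases on the gene's strand, at chr12:25096306-25096335 and chr12:25096271-25096300 for *Id2*, chr4:136143643-136143672 and chr4:136143742-136143771 for *Id3*, and chr13:48260956-48260985 for *Id4*.
*Id2*, GGCGCC 231 bases before the start: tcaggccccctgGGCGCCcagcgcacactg
*Id2*, E-box 196 bases before the start: aatttgccacccCAGCTGggctctcgcccg
*Id3*, GTCTG on the other strand, 167 bases before the start: tgtcctcggcgtCAGACcagcctaaggaag
*Id3*, GTCTG 68 bases before the start: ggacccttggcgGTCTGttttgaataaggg
*Id4*, GGCGCC 148 bases before the start: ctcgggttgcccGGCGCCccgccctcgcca

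The 250 bases before the *Id4* start, chr13:48260866-48261115, are shown whole because *Id4* differed most. Their GC content was 75.6%, against 62.8% before both *Id2* and *Id3*. The capitals mark GGCGCC, and a match describes these letters only.
*Id4* upstream: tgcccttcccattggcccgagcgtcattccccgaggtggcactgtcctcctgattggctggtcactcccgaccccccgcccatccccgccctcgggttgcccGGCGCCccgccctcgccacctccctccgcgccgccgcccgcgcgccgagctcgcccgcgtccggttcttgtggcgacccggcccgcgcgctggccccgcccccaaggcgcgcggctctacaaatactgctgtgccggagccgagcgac

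The control + A83-01 replicates 1 to 3 carried the same label numbers as the control + vehicle replicates, so the 3 pairs could be read directly. *Id4* was higher with A83-01 by 20.3, 13.2 and 29.5 times in the 3 pairs, and *Id3* by 5.52, 3.20 and 3.54 times. *Id1* was higher by 1.52, 1.54 and 1.70 times, a narrow range for a gene whose starting values ran from 258 to 534. *Id2* stood at 0.529, 0.837 and 0.675 of its vehicle value. All 3 pairs thus went the same way for each member. The share of all genes that did so was not counted, so this is no result particular to the Id genes.

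Which control samples were fitted bore on the call of *Id4* with A83-01. It passed without control + vehicle replicate 3 and without control + A83-01 replicates 1, 2 or 3, and it missed without control + vehicle replicate 1 (log2 difference 4.14, adjusted p = 0.0152), control + vehicle replicate 2 (4.38, 0.0105) or control + A83-01 replicate 4 (4.16, 0.0102). *Id3* passed without control + A83-01 replicate 2 (2.59, adjusted p = 0.00468), the sample with the lowest *Id3* of its group. With deletion, *Id3* and *Id4* passed in all 7 fits that left out 1 sample. Without *Smad2/3* cKO replicate 2, the sample with macrophage genes, the log2 differences were 2.73 for *Id3* (adjusted p = 0.00451), 5.38 for *Id4* (0.00154), 1.38 for *Id1* (0.0401) and −0.10 for *Id2* (0.735).

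The addition of A83-01 was also measured in *Smad2/3* cKO organoids, in which the deletion is meant to remove the factors that the drug's target receptors act on. How complete the deletion was in these samples was not measured. None of the 4 Id genes passed, none of 12998 genes did (0% called, limma), and 0 members and 554 genes were below an unadjusted p of 0.05. Of 9 genes known to answer to SMAD2/3 that were tested, 6 were below it, against 4.26% of all genes (limma). Their median log2 difference was −0.90. Mean *Pmepa1* stood at 72.7 without and 7.17 with the drug, and mean *Atf3*, in the other direction, at 242 and 411. The cause was not tested. The log2 differences were −0.29 for *Id1* (95% interval −1.04 to 0.46), 0.16 for *Id2* (−0.39 to 0.72), 0.09 for *Id3* (−0.68 to 0.86) and −0.02 for *Id4* (−0.78 to 0.74). The intervals of *Id1*, *Id3* and *Id4* lie below the changes estimated for A83-01 in control organoids, and that of *Id2* lies above its change there. Such a reading leaves out the uncertainty of the control estimates. The intervals of *Id3* and *Id4* leave room for changes of up to 0.86 and 0.74 on the log2 scale. Without *Smad2/3* cKO replicate 2 the differences were −0.23, 0.13, 0.11 and 0.08 for *Id1* to *Id4*.

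That contrast was tested directly as the effect of A83-01 in *Smad2/3* cKO organoids minus its effect in control organoids, in 1 fit of all 15 samples. *Id4* passed, at −4.02 on the log2 scale (SE 0.618, 95% interval −5.34 to −2.70, adjusted p = 0.00314, limma), beside 0.551% of all genes. It was 1 of 4 members to do so, and it passed in all 15 fits that left out 1 sample (−3.92 without *Smad2/3* cKO replicate 2, adjusted p = 0.00845). *Id3* had a difference of −2.11 (SE 0.611) with an unadjusted p of 0.00351 and an adjusted p of 0.109. *Id1* stood at −1.11 (adjusted p = 0.349) and *Id2* at 0.74 (adjusted p = 0.297).

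Deletion with A83-01 was also set against control + vehicle, the samples the first comparisons share. *Smad2/3* cKO + A83-01 against control + vehicle gave rises of 5.46 for *Id4* (SE 0.464, adjusted p = 7.62e-05, limma) and 2.84 for *Id3* (SE 0.397, adjusted p = 0.00103), so that 2 of 4 members passed beside 11.7% of all genes. *Id1* stood at 1.15 (adjusted p = 0.0434) and *Id2* at 0.03 (95% interval −0.61 to 0.66). *Id3* and *Id4* passed in all 7 fits that left out 1 sample.

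**Figure D2:**
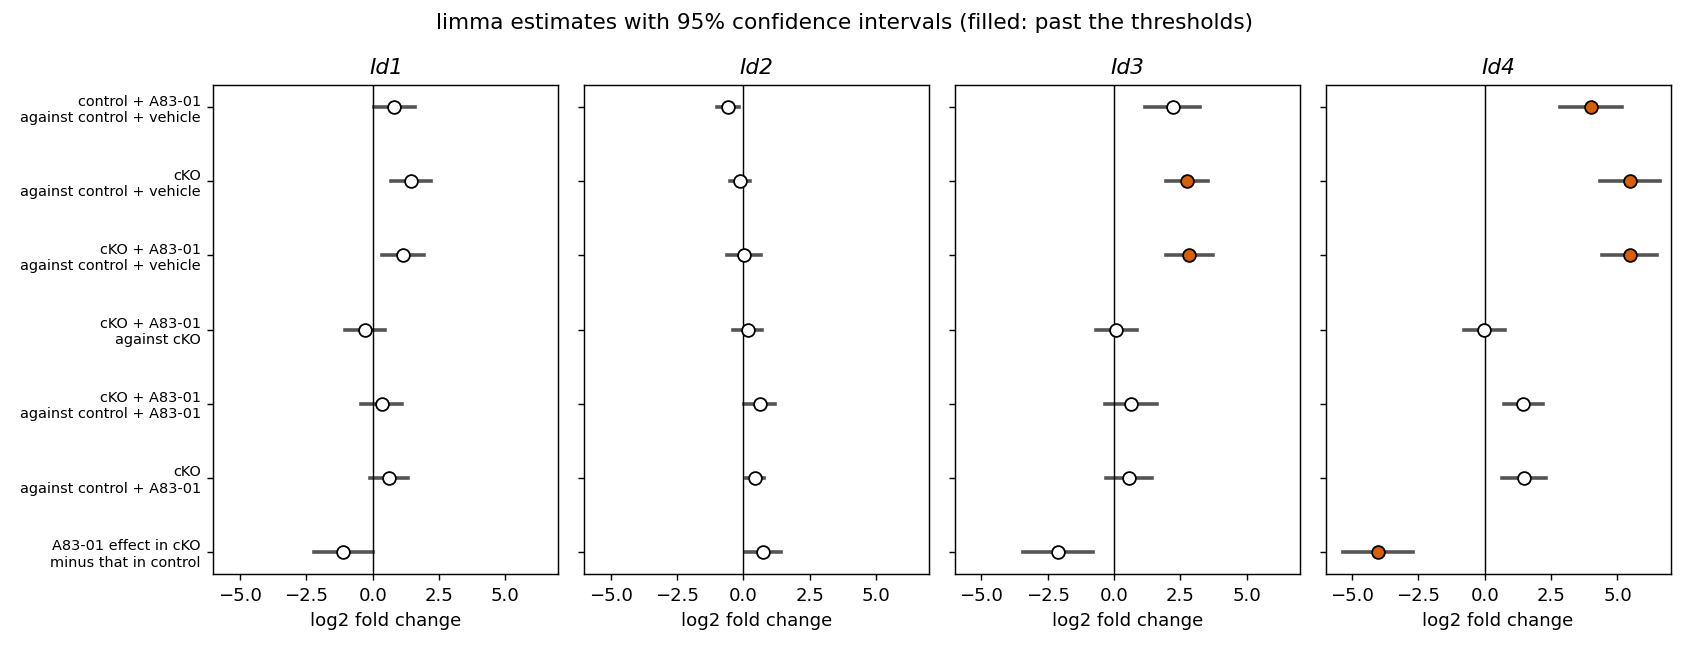
Log2 differences (x axis, limma, with 95% confidence intervals) of the 4 Id genes in 7 comparisons (rows), with filled points past the thresholds. *Id4* is filled in the 3 comparisons with control + vehicle and in the last row (−4.02), *Id3* in those with deletion, and the points for A83-01 in *Smad2/3* cKO organoids lie between −0.29 and 0.16.

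Deletion and drug were also compared with each other. *Smad2/3* cKO against control + A83-01 called none of the 4 Id genes and none of 12980 genes (0% called, limma), while 2 members and 826 genes had an unadjusted p below 0.05. *Id4* was 2.78-fold higher in *Smad2/3* cKO (log2 difference 1.47, 95% interval 0.66 to 2.29, unadjusted p = 0.00245, adjusted p = 0.591), with no overlap between 305 to 858 and 128 to 258. *Id2* was 1.36-fold higher (unadjusted p = 0.0142, adjusted p = 0.722), again with no overlap. The share of all genes without overlap was not counted, so the separation is given as a description only. For *Id3* (0.55, −0.32 to 1.42) and *Id1* (0.62, −0.08 to 1.33) the intervals included 0. Without *Smad2/3* cKO replicate 2 the differences were 0.57, 0.48, 0.53 and 1.37 for *Id1* to *Id4* (adjusted p = 0.938 for each).

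With A83-01 in both genotypes, deletion called none of the 4 members beside 0.0232% of all genes (limma). *Id4* had a log2 difference of 1.45 (SE 0.324, 2.74-fold, unadjusted p = 0.00119, adjusted p = 0.146), and all 4 *Smad2/3* cKO + A83-01 samples lay above all 4 control + A83-01 samples. Here too the share of all genes so separated was not counted. *Id2* stood at 0.61 (adjusted p = 0.497), *Id3* at 0.64 (adjusted p = 0.715) and *Id1* at 0.34 (adjusted p = 0.827). In this comparison 2 members had an unadjusted p below 0.05, as did 9.52% of all genes.

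The levels of the members can be set against each other only per length, as the normalized count per kb of exon. In control + vehicle *Id1* (327 ± 121 per kb, SD, n = 3) and *Id2* (312 ± 47.5) stood highest and did not differ beyond their spread, followed by *Id3* (65.1 ± 24.9) and *Id4* (3.07 ± 1.78). In *Smad2/3* cKO the order was *Id1* (895 ± 315, n = 4), *Id3* (439 ± 160), *Id2* (284 ± 31.2) and *Id4* (141 ± 64.2), and *Id3* and *Id2* overlapped in their spread. *Id2* supplied 40.6 to 49.9% of the summed Id level per kb in control + vehicle and 12.3 to 26.8% in *Smad2/3* cKO. *Id3* supplied 7.38 to 12.8% and 22.1 to 28.5%, and *Id4* 0.169 to 0.885% and 4.41 to 13.3%. The share of *Id2* was thus lower and those of *Id3* and *Id4* higher with deletion, with no overlap, and the summed level was 534 to 891 per kb in control + vehicle against 1217 to 2330 in *Smad2/3* cKO. Shares of the same sum depend on each other, so they restate the differences of the members and add no separate result. A83-01 samples summed to 756 to 1456 per kb with the control genotype and to 1108 to 2209 with the deletion.

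**Figure D3:**
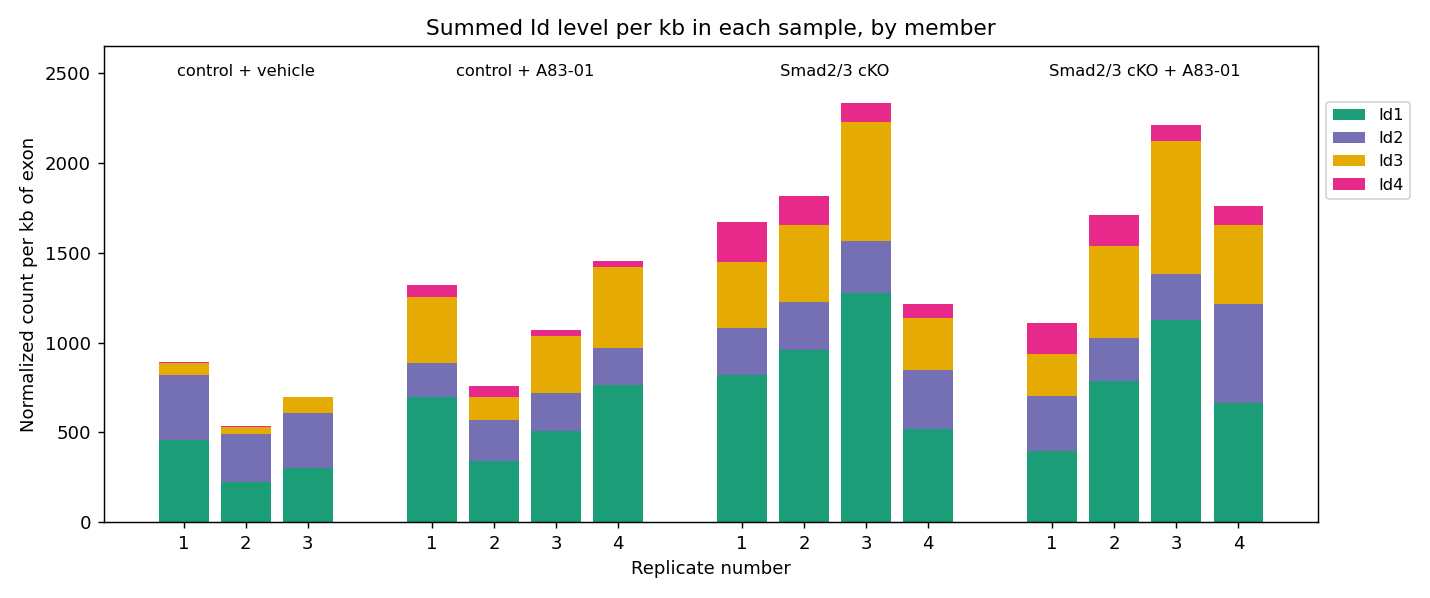
Summed Id level per sample (y axis, normalized count per kb of exon), split by member, with replicates of the 4 groups along the x axis. The control + vehicle bars (534 to 891) are mostly *Id1* and *Id2*, and the *Smad2/3* cKO bars (1217 to 2330) hold more *Id1*, *Id3* and *Id4*.

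*Id1* and *Id3* also moved together from sample to sample within groups. The replicates had the same order from lowest to highest for both genes in 3 of the 4 groups, all but control + vehicle, which was seen for *Id1* and *Id2* in 1 group and for none of the other pairs. As a description over the 15 samples after subtraction of the group means, *Id1* and *Id3* correlated at 0.888 (Spearman 0.832), whereas *Id3* and *Id4* stood at −0.505 and *Id1* and *Id2* at −0.167. The ratio of *Id1* to *Id3* was 2.16 to 4.53 in control + vehicle, above that of every other sample. It was 1.16 to 1.44 in *Smad2/3* cKO and 1.04 to 1.74 in control + A83-01. Deletion with A83-01 gave ratios of 0.984 to 1.09, although *Id1* itself ran from 462 to 1307 in those 4 samples.

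**Figure D4:**
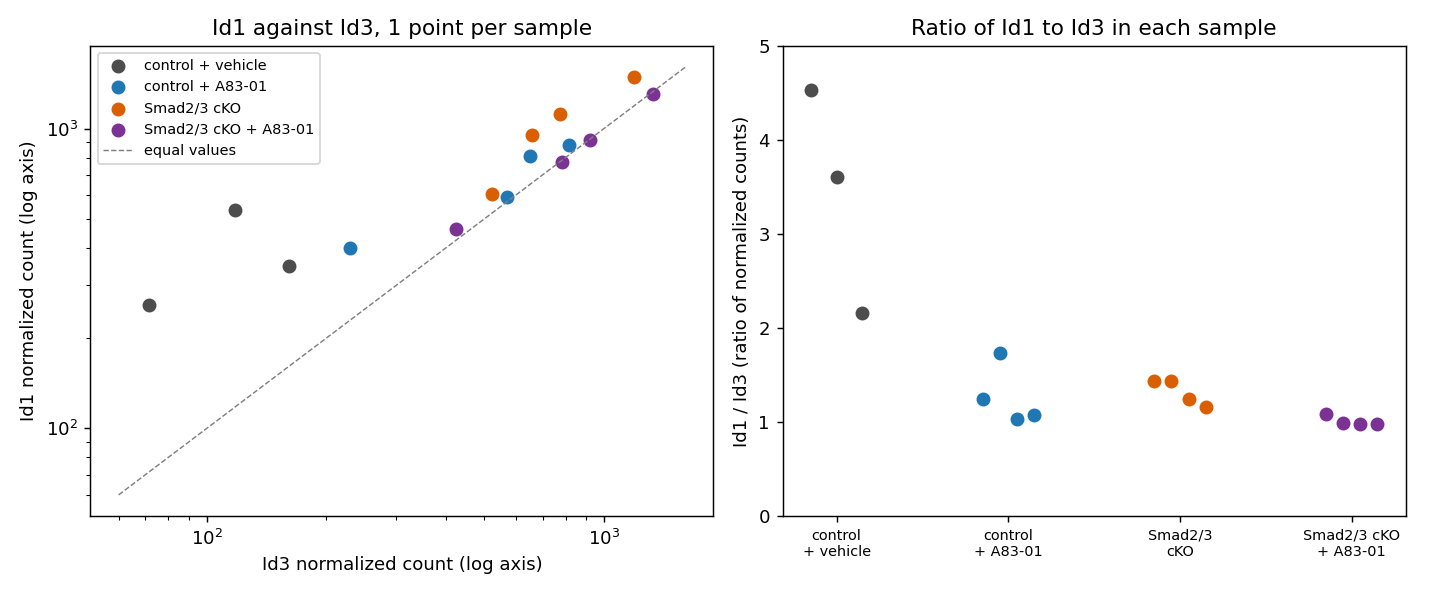
*Id1* against *Id3* in the 15 samples (left, log axes, normalized counts, dashed line at equal values) and their ratio by group (right). The control + vehicle ratios (2.16 to 4.53) lie above all others, and the *Smad2/3* cKO + A83-01 ratios lie near 1.

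Of the E proteins, the partners that ID proteins hold off DNA, 2 of 3 fell with deletion. *Tcf3* (E2A) stood at 1536, 1726 and 1766 in control + vehicle and at 779 to 954 in *Smad2/3* cKO, and the A83-01 samples read 868 to 1088 with the control genotype and 770 to 981 with the deletion. Its control + vehicle samples lay above all others. *Tcf3* fell with deletion by 0.92 on the log2 scale (SE 0.132, adjusted p = 0.00249, limma), and passed in 6 of 7 fits that left out 1 sample, but not without control + vehicle replicate 2 (log2 difference −0.90, adjusted p = 0.0142). With A83-01 in control organoids its difference was −0.82 (adjusted p = 0.0152).

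*Tcf4* (E2-2) stood at 785, 784 and 1093 in control + vehicle, and no other sample reached these values (289 to 567 with A83-01, 294 to 459 with deletion, 272 to 431 with both). It fell with deletion by 1.19 (SE 0.211, adjusted p = 0.00595, limma), but passed in only 1 of 7 fits that left out 1 sample, the one without *Smad2/3* cKO replicate 2 (adjusted p in the 7 fits 0.00893 to 0.0208). With A83-01 its difference was −1.05 (adjusted p = 0.0435). *Tcf12* (HEB) had differences of −0.61 with A83-01 (adjusted p = 0.111) and −0.23 with deletion (adjusted p = 0.265). With A83-01 in control organoids 0 of the 3 passed, and all 3 had an unadjusted p below 0.05, as did 22.2% of all genes (limma).

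Of 45 tissue bHLH factors on the list 10 were in the table and 5 were tested in each of these comparisons. *Bhlha15* (MIST1), a factor of secretory cells, rose in both. The control + vehicle samples held 601 to 647 normalized counts, below all others, which held 1741 to 2015 with A83-01, 1668 to 2554 with deletion and 2058 to 2217 with both. Its rise was 1.55 with A83-01 (SE 0.144, adjusted p = 0.000735, limma) and 1.63 with deletion (SE 0.164, adjusted p = 0.000507), and the A83-01 effect was smaller in *Smad2/3* cKO organoids by 1.43 (adjusted p = 0.000869). *Twist1*, a mesenchymal factor, fell with deletion (adjusted p = 0.00617), from 15.979 to 51.6 in control + vehicle to at most 1.21 in *Smad2/3* cKO, and passed in 1 of the 6 fits without 1 sample in which it could be tested (adjusted p 0.00989 to 0.0391).

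Of 12 HES and HEY factors and relatives, bHLH repressors that answer mostly to Notch, 5 were tested. *Hey1*, also a BMP target, rose with deletion by 1.59 (SE 0.292, adjusted p = 0.0067, limma), from 49.6 to 66.4 in control + vehicle to 137 to 218 in *Smad2/3* cKO. It stood at 54.8 to 91.6 in control + A83-01, where its difference was 0.14 (adjusted p = 0.862), and at 184 to 434 in *Smad2/3* cKO + A83-01. The *Hey1* call was lost in each of the 7 fits that left out 1 sample (log2 difference 1.48 to 1.71, adjusted p 0.0131 to 0.0256). *Hes6* fell with deletion by 0.94 (adjusted p = 0.00754), and passed in 1 of 7 such fits (adjusted p 0.00706 to 0.0296).

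**Figure D5:**
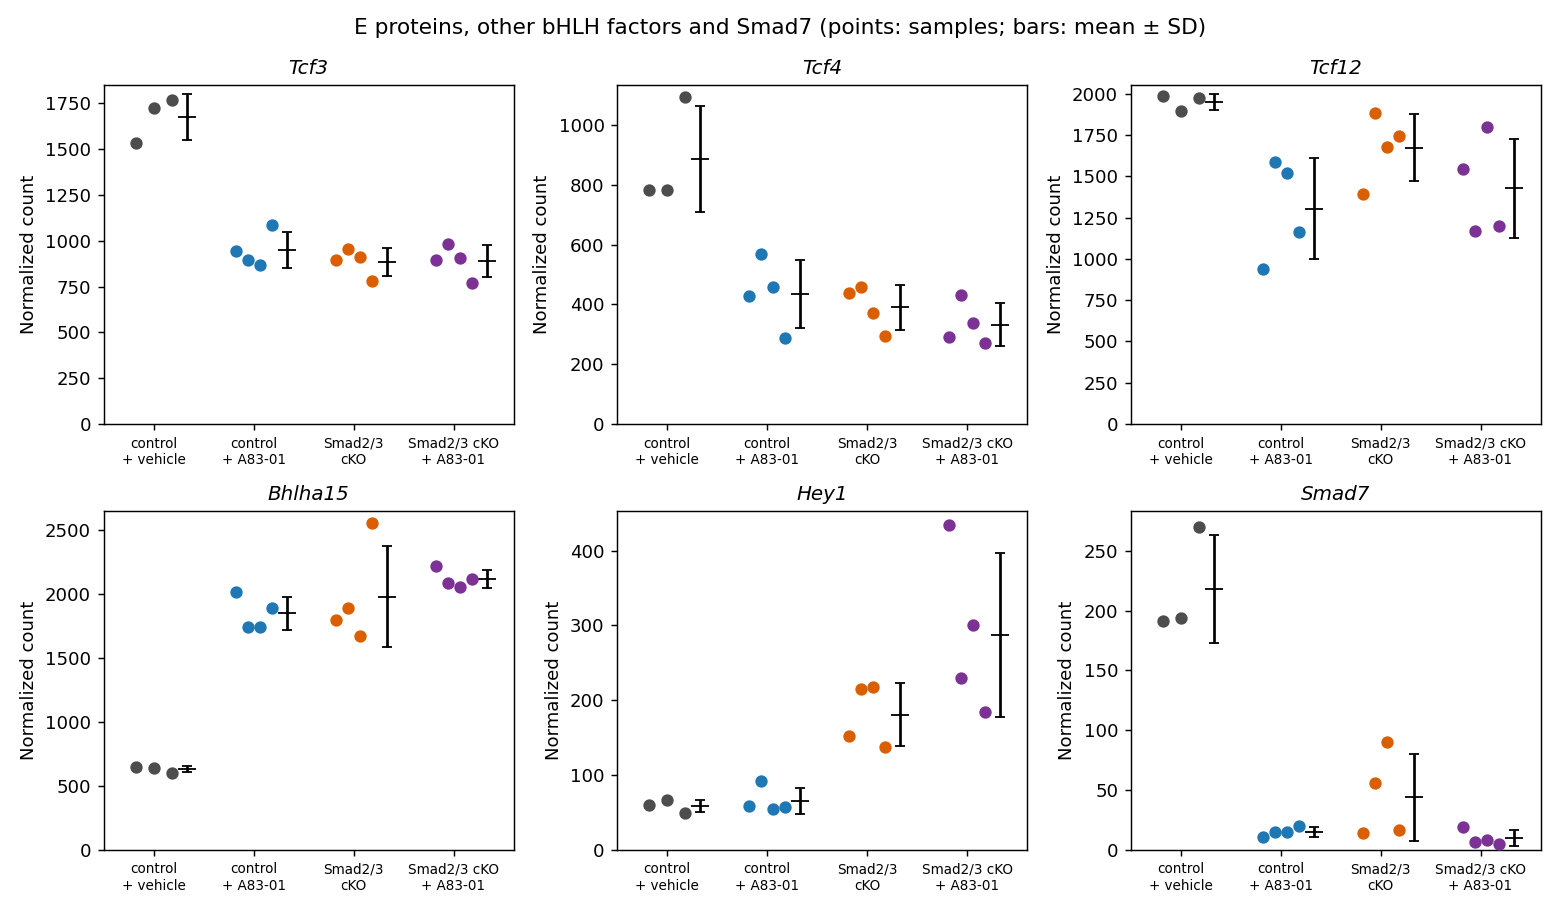
Normalized counts of the E proteins *Tcf3*, *Tcf4* and *Tcf12*, the bHLH factors *Bhlha15* and *Hey1*, and *Smad7*, by group (x axis), with 1 point per sample and the mean ± SD beside them. *Tcf3* and *Smad7* are highest and *Bhlha15* lowest in the 3 control + vehicle samples, and *Hey1* is higher in the 2 *Smad2/3* cKO groups than in both control groups.

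Of 13 BMP ligands 8 were in the table and 4 were tested in both comparisons. *Bmp3*, an atypical ligand known to oppose other BMPs, rose with deletion by 4.41 (SE 0.810, adjusted p = 0.00671, limma), from 1.12 to 24.1 in control + vehicle to 113 to 403. *Bmp8a* rose by 1.09 (SE 0.198, adjusted p = 0.00641), from 184 to 257 to between 391 and 488. *Bmp3* passed in 1 and *Bmp8a* in 2 of 7 fits that left out 1 sample (adjusted p of at most 0.0217 and 0.0289). No ligand passed with A83-01 in control organoids (limma), where 3 of 4 had an unadjusted p below 0.05, against 22.2% of all genes. *Bmp3* stood there at a log2 difference of 3.99 (adjusted p = 0.026) and *Bmp8a* at 1.27 (adjusted p = 0.087).

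All 7 BMP receptors were tested and 0 passed in either comparison (limma), while 4 in each had an unadjusted p below 0.05, against 22.2% of all genes with A83-01 and 33.7% with deletion. With the replicate block *Acvrl1*, which encodes the receptor ALK1, passed with A83-01 (log2 difference −1.93, adjusted p = 0.00651). Of the BMP-activated and common SMADs 3 of 4 were in the table and 0 passed, with 0 below an unadjusted p of 0.05 with A83-01 and 1, *Smad5*, with deletion (limma). *Smad1* had log2 differences of −0.16 with A83-01 and −0.23 with deletion, *Smad5* 0.215 and 0.55, and *Smad4* −0.13 and −0.26, with adjusted p-values of 0.101 or more. These are transcript levels, and phosphorylation was not measured in these data.

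Of the extracellular BMP antagonists 6 of 13 were tested. *Fst*, which binds activin and some BMPs, fell in both comparisons, from 247 to 1183 in control + vehicle to at most 17.5 in control + A83-01 (adjusted p = 0.00671, limma) and 10.997 to 48.6 in *Smad2/3* cKO (adjusted p = 0.00239). It passed in 2 of 7 fits without 1 sample with A83-01 (adjusted p 0.0055 to 0.0434) and in 5 of 7 with deletion, where it missed without control + vehicle replicate 1 (0.0124) or 2 (0.0118). *Fst* is also a known activin target. *Bmper* and *Fstl3* passed in neither comparison and stood higher. Their means were 29.2 and 276 in control + vehicle, 65.0 and 467 in control + A83-01, and 134 and 485 in *Smad2/3* cKO. Both passed upwards with deletion and A83-01 together (limma), in 4 and 2 of 7 fits that left out 1 sample. Of the 6 antagonists 2 with A83-01 and 4 with deletion had an unadjusted p below 0.05 (limma), against 22.2% and 33.7% of all genes.

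Of the other BMP target genes *Hey1* passed with deletion, upwards, and *Smad7* with A83-01, downwards. *Bambi*, a decoy receptor, was at 38.5 to 52.5 in control + vehicle and 63.6 to 145 in *Smad2/3* cKO without passing (log2 difference 1.01, adjusted p = 0.101, limma). In the other direction and also without passing, *Dlx5* was at 1388 to 1877 and 189 to 832, and *Gata2* at 1712 to 2623 and 651 to 1313. Both passed downwards with deletion and A83-01 together (limma), in 4 (*Dlx5*) and 5 (*Gata2*) of 7 fits that left out 1 sample. Of 14 on the list 9 were tested with A83-01 and 8 with deletion, with median log2 differences of −0.77 and −1.15, against −0.02 and 0.00 over all genes. An unadjusted p below 0.05 was found for 5 and 7 of them (limma), against 22.2% and 33.7% of all genes. *Smad6*, the inhibitory SMAD of the BMP branch, stood at 149 to 164 in control + vehicle and at 27.5 to 74.3 in *Smad2/3* cKO, while A83-01 samples held 17.6 to 52.3 with the control genotype and 5.12 to 79.9 with the deletion. Its log2 differences were −2.63 with A83-01 (adjusted p = 0.0109) and −1.74 with deletion (adjusted p = 0.0177, limma), both short of the threshold. Control + vehicle did not overlap the other groups, but the share of all genes so separated was not counted. *Smad7*, the inhibitory SMAD that both branches induce, fell with A83-01 by 3.79 (SE 0.387, adjusted p = 0.00132), from 191 to 270 down to 10.4 to 20.2. It missed without control + vehicle replicate 1 (adjusted p = 0.0108) or 2 (0.0118), and stood at −2.67 with deletion (adjusted p = 0.0196).

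Of 10 genes known to answer to SMAD2/3, a list that holds *Smad7* too, 9 were tested with A83-01 and 10 with deletion, and 4 fell in each. Others on the list stood higher, *Atf3* by 1.57 with A83-01 and 1.17 with deletion (adjusted p = 0.0219 and 0.0205) and *Tgfbi* by 3.41 with deletion (0.0136). With deletion and A83-01 together all 10 passed (limma), 8 downwards, and *Atf3* and *Tgfbi* upwards. *Pmepa1*, *Ccn2* and *Fn1* fell in both. *Pmepa1*, an inhibitor of TGFβ signaling, fell from 821 to 1327 in control + vehicle to 28.4 to 60.1 with A83-01 (log2 difference −4.44, SE 0.334, adjusted p = 0.000252, limma) and to 16.3 to 178 with deletion (−4.29, SE 0.675, adjusted p = 0.00375). *Fn1*, fibronectin, stood at −8.49 and −9.06, *Ccn2* at −2.72 and −2.94, and *Tgif1* fell with deletion by 1.18. Of these calls, *Pmepa1* with deletion missed without control + vehicle replicate 1 (adjusted p = 0.022), control + vehicle replicate 2 (0.0185) or *Smad2/3* cKO replicate 1 (0.0107), and *Ccn2* missed in both comparisons without control + vehicle replicate 1 (0.0113 and 0.0169) or 2 (0.0105 and 0.0165).

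Among 7 inhibitors of cyclin-dependent kinases, the cell cycle brakes that ID proteins are known to hold down, *Cdkn2c* (p18) rose with deletion by 1.12 (SE 0.221, adjusted p = 0.00887, limma). It passed in 1 of 7 fits that left out 1 sample (adjusted p 0.00868 to 0.036). With deletion 4 of the 7 genes had an unadjusted p below 0.05, against 33.7% of all genes (limma). With A83-01 0 passed, and 2 of 7 had an unadjusted p below 0.05, as did 22.2% of all genes (limma). *Cdkn1a* (p21) stood at 5507 to 9204 in control + vehicle and 4075 to 6067 in *Smad2/3* cKO.

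Marker genes of other cell types moved with the same groups, and their part in the Id results was not tested. With deletion *Ptprc*, the leukocyte gene CD45, rose by 3.325 (adjusted p = 0.00228, limma) with group means of 22.8 in control + vehicle, 168 in control + A83-01, 225 in *Smad2/3* cKO and 265 in *Smad2/3* cKO + A83-01. It was 1 of the 6 leukocyte markers tested to pass, and their summed level ran from 1315 to 2938 in control + vehicle and from 2117 to 8239 in *Smad2/3* cKO, the highest being replicate 2, where *Lyz2* (3372) exceeded *Cd68* (3258). With A83-01 in control organoids 0 of 4 leukocyte markers tested passed, 3 being below an unadjusted p of 0.05, as were 22.2% of all genes (limma), and the sum ran from 3407 to 8762. *Acta2*, a smooth muscle marker, fell with deletion by 3.12 (adjusted p = 0.00841). Of the 8 epithelial markers *Cldn4* fell (log2 difference −2.545, adjusted p = 0.00455), and the summed level ran from 248909 to 321768 in control + vehicle and from 126219 to 236483 in *Smad2/3* cKO. Leaving out 1 sample kept the call of *Ptprc* in 5 of 7 fits, that of *Cldn4* in 3 and that of *Acta2* in 1 (adjusted p of at most 0.0133, 0.026 and 0.0465).

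The genes most like each member over the 15 samples were found by Pearson correlation of log2 values among 13066 genes. For *Id4* they were *Pbld1* (0.98), *1700019D03Rik* (0.975), *Scarb2* (0.967), *Emb* (0.959) and *Atl2* (0.958), and for *Id3* *Abhd11* (0.947), *Wfs1* (0.929), *Sfxn1* (0.928), *Pinlyp* (0.926) and *Fkbp11* (0.925). *Abhd11* came first for *Id1* too (0.905), before *Pepd* (0.896), *Usp50* (0.832), *Ttc39a* (0.828) and *Gpd1l* (0.828). For *Id2* the values were lower, with *Kdm4b* at 0.806, *Gys1* at 0.793, *1110032A03Rik* at 0.712, *Vldlr* at 0.707 and *Trmt44* at 0.696. By Spearman correlation 3 of the 5 genes for *Id1* were kept, 1 of 5 for *Id2*, 1 of 5 for *Id3* and 0 of 5 for *Id4*. These values follow the group differences, which all genes that change between the same groups share.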

How the data were processed

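RNA from 15 organoid samples was sequenced from libraries made with a low-input kit that does not mark strand. Per the labels, the authors estimated counts with Salmon 1.4.0 on GRCm39 and normalized them in DESeq2 1.32.0. The deposited values, a signal per gene, are estimated counts divided by 1 size factor per sample. They are not whole, so they were tested on a log scale. All 15 columns matched a label, and 16697 of 16729 genes had a symbol.

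limma 3.58.1 (lmFit, eBayes with trend, two-sided) in R 4.3.3 was fitted on log2 of the value plus 1, keeping genes whose mean in the fitted samples was 10 or more, each pair of groups on its own and the interaction on all 15 samples. Benjamini-Hochberg adjustment ran over all genes tested, and the thresholds (adjusted p below 0.01, 1.4-fold) follow the study's methods. Fits were tested on simulated data. Tables used Python 3.11.15 and pandas 2.3.3. Gene positions are those of GENCODE on GRCm38.

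The members and gene lists were chosen with earlier results of these data known. Named are all 4 members, the listed genes that passed with A83-01 in control organoids, with deletion or with A83-01 in *Smad2/3* cKO organoids, the E proteins, *Smad1*, *Smad4*, *Smad5*, *Smad6* and *Smad7*, and the 5 genes most like each member. *Cdkn1a*, *Cdkn2a*, *Cdkn2b*, *Cdkn2d*, *Acvrl1*, *Bambi*, *Dlx5*, *Gata2*, *Bmper*, *Fstl3*, *Atf3*, *Tgfbi* and the marker genes without a call were added after their values were seen. Replicate numbers paired control + vehicle with control + A83-01, where same-numbered samples also share the label numbers 367, 368 and 395 and their deviations from the group means correlated at 0.354 to 0.423. No other 2 groups met this bar, although number 369 stands on *Smad2/3* cKO replicate 2 and *Smad2/3* cKO + A83-01 replicate 1 (correlation 0.355), and 367 also on *Smad2/3* cKO replicate 1 (0.0774 and 0.0944 with the control samples of that number). Samples of different replicate number correlated at −0.359 to 0.348 between the 2 control groups. Between the 2 *Smad2/3* cKO groups they reached 0.394, and those of the same replicate number 0.375. A correlation of this size alone thus does not mark a pair. The alternatives were other pseudocounts (0.1, 10), other minimum means (none, 50), quantile normalization, rescaling, eBayes without trend, sample weights, the replicate block, a covariate for the series of the label numbers, a fit of all 4 groups, a threshold of 0.05 on the adjusted p, and each sample left out in turn. Their use on the listed genes was added after seeing the data.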

Additional observations from a re-analysis of the deposited data

Results flagged for a closer look

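The effect of A83-01 on *Id4* differed between genotypes by a test of the difference itself. The log2 effect in *Smad2/3* cKO organoids minus that in control organoids was −4.02 (SE 0.618, adjusted p = 0.00314, limma, 15 samples), with group means of 11.8 and 190 in control organoids without and with A83-01, and of 544 and 518 in *Smad2/3* cKO organoids. It passed in all 11 alternatives (−4.77 to −3.20) and in all 15 fits that left out 1 sample. In 12 groups of 4 values (the 4 genes in the 3 groups of 4 samples), no value lay further from the others than Dixon's test allows.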

How the results depend on the processing

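The count of Id genes past the thresholds with A83-01 in control organoids was 1 as reported, 0 with no filter on low values, and 2 with sample weights, with the replicate block (which pairs these samples), with all 4 groups in the fit and at an adjusted p below 0.05. Leaving out 1 sample gave counts of 0 to 2. With deletion, and with deletion and A83-01 together, it was 2, and 3 at an adjusted p below 0.05, where *Id1* was added. In the other 4 comparisons no alternative changed the count, and the block changed it in the first alone. The signs that reversed were of differences that did not pass. *Id4* with A83-01 in *Smad2/3* cKO organoids was −0.02 as reported, 0.00183 with quantile normalization and −0.26 to 0.24 with 1 sample left out. *Id3* and *Id2* in that comparison ranged from −0.15 to 0.39 and from −0.11 to 0.30 with 1 sample left out. *Id2* in *Smad2/3* cKO + A83-01 against control + vehicle was −0.24 with the replicate block and ranged from −0.24 to 0.17 with 1 sample left out. The cause was not tested. Over all genes, calls with A83-01 in control organoids numbered 295 as reported, 146 with no filter, 582 with sample weights, 443 with the number series as a covariate, 655 with all 4 groups, 955 at an adjusted p below 0.05 and 49 to 312 with 1 sample left out. With deletion they numbered 970, 452 without the trend, 211 with the replicate block, 2413 at 0.05 and 280 to 992 with 1 sample left out. With both they numbered 1538, 568 with the block, 2930 at 0.05 and 736 to 1580 with 1 sample left out, and for the difference of effects 72, 127 with weights, 208 at 0.05 and 39 to 77. Deletion under A83-01 had 3, with 0 under no filter and the block, 1 without the trend, 5 with all 4 groups, 72 with the number series and 0 to 4 with 1 sample left out. Of 17 listed genes called with deletion, 13 lost the call with the replicate block, in groups the numbers do not pair, and *Tgif1*, *Fn1*, *Bhlha15* and *Cldn4* kept it. *Acta2* kept it in 5 and *Hes6* in 7 of 12 alternatives, and *Fst* with A83-01 in 9 of 12.

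The limits are 3 or 4 samples a group and values without a depth of their own. *Id4* in control + vehicle (4.55 to 18.2) rests on few reads, so its fold changes depend on the pseudocount, and ran on the log2 scale from 4.61 to 5.71 with deletion and from 3.18 to 4.27 with A83-01 over the alternatives.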
